A study of Mus musculus with 4 samples.

Results

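Folate-cycle genes were followed across cell classes, liver zones and Brca1 genotype in single-nucleus RNA sequencing of mouse liver, a droplet assay that counts transcripts as unique molecular identifiers (UMIs) in isolated nuclei. The 9 genes were taken by symbol out of 32285 in the deposited tables: Mthfd1, Mthfs, Shmt1, Aldh1l1, Ftcd and Slc19a1, whose products work in the cytosol or at the plasma membrane, and Shmt2, Mthfd1l and Aldh1l2, whose products work in mitochondria. The tissue was non-tumor liver of male mice that were given the liver carcinogen diethylnitrosamine (DEN) at 25 mg/kg when 14 days old and were killed at 12 months. Of the 4 libraries, 2 were labelled Brca1-KO and 2 were labelled Brca1-WT, and all 4 came from DEN-exposed mice. The labels call them biological replicates and give no strain, Cre driver or deleted exon. P-values refer to these libraries only, and edgeR shares its estimate of spread across genes.

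Folate carries single carbon units between amino acids, nucleotides and the methylation cycle. In the cytosol and again in mitochondria, serine hydroxymethyltransferases load a carbon from serine onto tetrahydrofolate, C1-tetrahydrofolate synthases interconvert the loaded forms, and 10-formyltetrahydrofolate dehydrogenases release the carbon as carbon dioxide. Liver holds much of the body's folate, and it also feeds carbon into the pool by breaking down histidine through Ftcd. Hepatocytes differ along the lobule from periportal, where blood enters, to perivenous, around the central vein, and amino acid breakdown is a classical periportal function.

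After filtering and removal of doublets, 23868 nuclei remained, and 13476 of them fell in 8 clusters called hepatocyte-like, each with all 10 hepatocyte markers (Alb and Apoa1 among them) in at least 10% of its nuclei. The 4 libraries held between 36662067 and 45638888 UMIs, and each pair of libraries shared between 9 and 20 barcodes. Clustering left the 9 genes and 35 further folate-pathway genes out of the genes it used. The library labelled Brca1-KO replicate 2 stood apart: 3862 of its 4091 hepatocyte-like nuclei (94.4%) lay in 3 clusters that held 1 of 2572 hepatocyte-like nuclei of Brca1-KO replicate 1, 47 of 2794 of Brca1-WT replicate 1 and 85 of 4019 of Brca1-WT replicate 2. Brca1 itself stood at 18.6 and 5.78 UMIs per 1000000 UMIs (CPM) in hepatocyte-like nuclei of libraries labelled Brca1-KO, against 13.4 and 12.4 in those labelled Brca1-WT. The library labelled Brca1-KO replicate 1 thus held more Brca1 than either Brca1-WT library, and with the deleted exons not given, these counts do not check the labels. Libraries are called by their labels below.

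In hepatocyte-like nuclei, 8 of the 9 genes were readily counted and Aldh1l2 was close to 0. Values are CPM, the UMIs of a gene per 1000000 UMIs summed over the nuclei of a library. They are not divided by transcript length, so they are compared between libraries and classes and not between genes. Mthfd1, the cytosolic trifunctional C1-tetrahydrofolate synthase, stood at 240 and 265 CPM in libraries labelled Brca1-KO, against 219 and 243 in those labelled Brca1-WT. Shmt1, the cytosolic serine hydroxymethyltransferase, stood at 243 and 248 in libraries labelled Brca1-KO, against 215 and 227 in those labelled Brca1-WT. These were the steadiest of the hepatocyte values, with each gene's 4 libraries lying close together.

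Aldh1l1, the cytosolic 10-formyltetrahydrofolate dehydrogenase, stood at 567 and 210 CPM in libraries labelled Brca1-KO, against 390 and 591 in those labelled Brca1-WT. The low value was that of Brca1-KO replicate 2, and the other Brca1-KO library lay between the Brca1-WT libraries. Ftcd, the bifunctional enzyme that takes the formimino group of histidine onto folate, stood at 441 and 241 in libraries labelled Brca1-KO, against 323 and 418 in those labelled Brca1-WT. Its lowest library was again Brca1-KO replicate 2. Mthfs, which returns 5-formyltetrahydrofolate to the active pool, stood at 137 and 113 in libraries labelled Brca1-KO, against 181 and 135 in those labelled Brca1-WT. Slc19a1, the reduced folate carrier of the plasma membrane, stood at 7.78 and 8.48 in libraries labelled Brca1-KO, against 10.3 and 11.5 in those labelled Brca1-WT.

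Among the mitochondrial enzymes, Shmt2, the mitochondrial serine hydroxymethyltransferase, stood at 50.7 and 30.1 CPM in libraries labelled Brca1-KO, against 35.7 and 61.2 in those labelled Brca1-WT. Mthfd1l, the mitochondrial formyltetrahydrofolate synthetase that releases formate to the cytosol, stood at 14.7 and 32.5 in libraries labelled Brca1-KO, against 29.2 and 21.3 in those labelled Brca1-WT. Aldh1l2, the mitochondrial counterpart of Aldh1l1, gave 1 and 8 UMIs in all hepatocyte-like nuclei of libraries labelled Brca1-KO, against 3 and 6 in those labelled Brca1-WT. No source used here says whether reads were counted by strand. In GENCODE vM21, Ftcd, Mthfd1l and Mthfs overlap no other gene of the tables, while the other 6 do, among them Slc19a1 with Col18a1 and Shmt1 with Smcr8 on the opposite strand, so counts of those 6 are less certain.

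**Figure D1:**
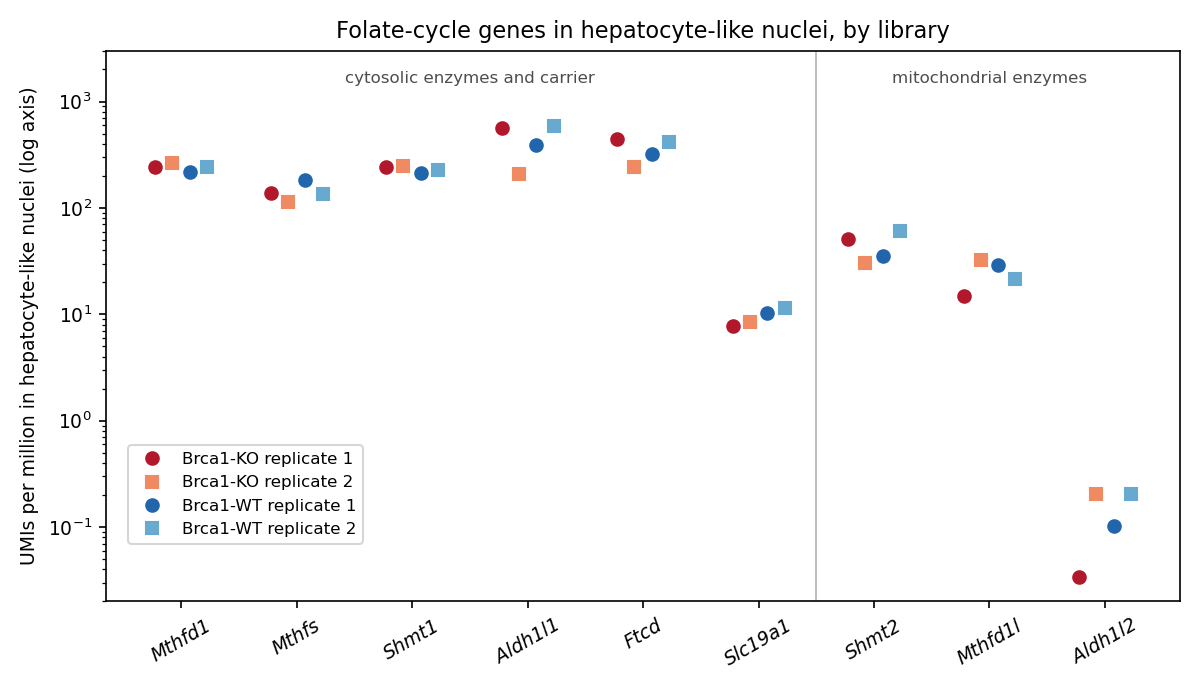
CPM (log axis) of the 9 folate-cycle genes summed over hepatocyte-like nuclei, 1 point per library, with Brca1-KO libraries left of Brca1-WT libraries. Mthfd1 and Shmt1 points lie close together, Aldh1l1 is lowest in Brca1-KO replicate 2 at 210, and Aldh1l2 lies near the bottom of the axis in every library.

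Mthfd1, Shmt1, Aldh1l1, Ftcd and Shmt2 were higher in hepatocyte-like nuclei than in every other class tested, while Mthfs, Mthfd1l, Slc19a1 and Aldh1l2 were not. For Shmt2, monocyte and dendritic-like nuclei held only 1 to 2 UMIs per library. Against endothelial-like nuclei, 8 of the 9 genes were higher in hepatocyte-like nuclei and Aldh1l2 was lower, in edgeR's quasi-likelihood test with library as a block and Benjamini-Hochberg adjustment over all genes. Over all 16215 genes tested, 64.6% passed in either direction, 34.8% were higher in hepatocyte-like nuclei and 29.9% lower, so a call by itself is common in this comparison. The median log2 difference was 1.94 over the 9 genes and 0.11 over all genes tested. Aldh1l1 averaged 439 ± 177 CPM in hepatocyte-like nuclei and 66.7 ± 11.8 in endothelial-like nuclei (SD, n = 4 libraries), and its log2 difference of 2.88 (SE 0.25) had an adjusted p of 5.6e-07 in edgeR. Shmt1 differed by 2.77 (SE 0.22, edgeR adjusted p 2.8e-07) and Mthfd1 by 2.60 (SE 0.19, edgeR adjusted p 1.4e-07). Slc19a1 differed by 2.30, Ftcd by 1.94, Shmt2 by 1.75, Mthfs by 1.24 and Mthfd1l by 0.64, on the same log2 scale. The call for Mthfd1l was lost without Brca1-WT replicate 1 (log2 0.45, edgeR adjusted p 0.098). Of 33 tested genes of 6 further folate-pathway lists, 21 were higher and 5 lower in hepatocyte-like nuclei. All 3 genes of histidine breakdown and 6 of 7 of glycine cleavage and methylglycine oxidation were among the higher ones, led by Sardh (log2 2.90, edgeR adjusted p 7.9e-08) and Uroc1 (log2 2.83, edgeR adjusted p 1.5e-07).

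Endothelial-like nuclei also held hepatocyte transcripts. The 10 hepatocyte markers stood there at a median of 21.5% and 39.8% of their hepatocyte-like level in libraries labelled Brca1-KO, against 19.6% and 20.6% in those labelled Brca1-WT. Aldh1l1 stood at 12.5% and 35.8% of its hepatocyte-like level in libraries labelled Brca1-KO, against 12.6% and 12.1% in those labelled Brca1-WT. Mthfd1 and Shmt1 likewise lay below the marker median in every library. Single markers ranged from 9.36% to 57.1% and from 27.3% to 152% in libraries labelled Brca1-KO. They ranged from 12.3% to 99.3% and from 11.7% to 55.6% in those labelled Brca1-WT. Whether endothelial-like nuclei express these genes themselves was not tested. Ftcd, Shmt2, Mthfs and Mthfd1l lay above the marker median in all 4 libraries. Ftcd stood at 24.6% and 48.7% of its hepatocyte-like level in libraries labelled Brca1-KO, against 35.4% and 20.6% in those labelled Brca1-WT, in each library below the highest hepatocyte marker. With each nucleus thinned to 1000 UMIs, Ftcd was seen in 22.5% to 33.6% of hepatocyte-like nuclei and in 7.54% to 10.6% of endothelial-like nuclei, and unthinned in 71.0% to 85.8% and in 13.1% to 21.5%. Median depths were 5948 to 9513 UMIs in hepatocyte-like nuclei and 1255 to 1851 in endothelial-like nuclei.

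Aldh1l2 was the one gene higher in endothelial-like nuclei, at a very low count. Hepatocyte-like nuclei held 0.0343, 0.206, 0.102 and 0.202 CPM in Brca1-KO replicates 1 and 2 and Brca1-WT replicates 1 and 2, and endothelial-like nuclei held 3.02, 1.03, 2.73 and 1.57 in the same order. The endothelial-like values come from 6, 1, 9 and 4 UMIs. The log2 difference, hepatocyte-like minus endothelial-like, was -3.76 (SE 0.67, edgeR adjusted p 0.00033), and the CPM of all 4 libraries lay in this direction. In Brca1-KO replicate 2 the direction rests on 1 endothelial-like UMI, below a floor of 3 UMIs, so that library is not read by itself. Aldh1l2 had no UMI in Kupffer and macrophage-like, monocyte and dendritic-like, T and NK-like or B-like nuclei, and 1 UMI in stellate and mesenchymal-like nuclei. A count of 0 allows up to 3 UMIs in a class and library, by counting error alone.

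Mthfd1l was higher in lymphocytes than in hepatocytes. These class tests were added after the levels by class had been seen. Hepatocyte-like nuclei held 14.7 and 32.5 CPM in libraries labelled Brca1-KO and 29.2 and 21.3 in those labelled Brca1-WT. T and NK-like nuclei held 91.4 and 114 in libraries labelled Brca1-KO and 168 and 87.3 in those labelled Brca1-WT. B-like nuclei held 68.3 and 96.2 in libraries labelled Brca1-KO and 84.4 and 162 in those labelled Brca1-WT. Every T and NK-like and B-like value lay above every hepatocyte-like value. The log2 difference, hepatocyte-like minus T and NK-like, was -1.87 (SE 0.21, edgeR adjusted p 5.6e-17), where 20.7% of 15272 genes were called lower. Against B-like nuclei it was -1.70 (SE 0.26, edgeR adjusted p 2.8e-10), where 16.0% of 14715 genes were called lower. Such small p-values do not come from the spread between libraries alone, because edgeR shares its estimate of spread across genes. The levels per library are the better guide. The lymphocyte values rest on 27 to 62 UMIs in T and NK-like nuclei and 10 to 26 in B-like nuclei. In lymphocytes Mthfd1l exceeded its hepatocyte-like level, where the hepatocyte markers had medians between 24.0% and 51.9% of theirs. As background, lymphocytes are known to draw on mitochondrial one-carbon metabolism when they proliferate.

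In the remaining classes Mthfd1l varied in direction, and Mthfs and Slc19a1 varied in whether they passed the test. Mthfd1l was higher in hepatocyte-like than in Kupffer and macrophage-like nuclei (log2 1.25, SE 0.26, edgeR adjusted p 2.3e-05). It did not differ detectably between hepatocyte-like and stellate and mesenchymal-like nuclei (log2 0.01, SE 0.25, edgeR adjusted p 0.98). Against monocyte and dendritic-like nuclei Mthfd1l did not pass (log2 -0.61, SE 0.36, edgeR adjusted p 0.16). The median log2 difference over all genes was 0.50 in that fit, so this value is not read as a lack of difference. Monocyte and dendritic-like nuclei held 15.9 and 28.9 CPM of Mthfd1l in libraries labelled Brca1-KO, against 94.3 and 101 in those labelled Brca1-WT, from 2, 4, 18 and 9 UMIs. The difference from hepatocyte-like nuclei passed without Brca1-KO replicate 1 (log2 -0.90, edgeR adjusted p 0.048) and without Brca1-KO replicate 2 (log2 -1.06, edgeR adjusted p 0.028). Mthfs stood at 143 and 109 CPM in Kupffer and macrophage-like nuclei of libraries labelled Brca1-KO and at 178 and 184 in those labelled Brca1-WT, near its hepatocyte-like levels. The log2 difference of Mthfs, hepatocyte-like minus Kupffer and macrophage-like, was 0.21 (SE 0.15, edgeR adjusted p 0.24), and against T and NK-like nuclei it was 0.16 (SE 0.19, edgeR adjusted p 0.51). Levels of Mthfs in CPM in T and NK-like nuclei were higher than in hepatocyte-like nuclei in 3 of 4 libraries, the opposite direction to this TMM-scaled difference. Slc19a1 did not pass against B-like nuclei (log2 0.64, SE 0.65, edgeR adjusted p 0.47) or T and NK-like nuclei (log2 1.04, SE 0.53, edgeR adjusted p 0.10), where those classes held 0 to 5 UMIs of it per library. It passed against the other 4 classes, but monocyte and dendritic-like nuclei held 0 and 0 UMIs of Slc19a1 in libraries labelled Brca1-KO and 0 and 1 in those labelled Brca1-WT, below the 3-count floor in every library, so that call is not read as a difference.

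Against each of these 5 classes, Mthfd1, Shmt1, Shmt2, Aldh1l1 and Ftcd were called higher in hepatocyte-like nuclei. Their log2 differences in edgeR lay between 1.05 for Shmt2 against B-like nuclei and 3.84 for Aldh1l1 against monocyte and dendritic-like nuclei. Shmt2 had only 1 and 2 UMIs in monocyte and dendritic-like nuclei of libraries labelled Brca1-KO, and 2 and 2 in those labelled Brca1-WT. These counts lay below the 3-count floor, while the hepatocyte-like levels of Shmt2 lay above it in every library. The size of that difference is therefore not read. Against B-like nuclei 7 of 8 tested folate-cycle genes were called, where 37.0% of all genes were called and 21.0% were higher. Against T and NK-like nuclei 6 of 8 were called, where 46.3% of all genes were called and 25.6% were higher. Against Kupffer and macrophage-like nuclei 7 of 8 were higher, where 57.8% of all genes were called and 32.8% were higher. Against monocyte and dendritic-like nuclei 7 of 8 were called higher, Slc19a1 and Shmt2 below the floor among them. Of all genes, 44.1% were called there, 26.9% higher and 17.2% lower. Mthfs was also among the 7, yet it stood at 128% and 70.2% of its hepatocyte-like level in libraries labelled Brca1-KO. In those labelled Brca1-WT it stood at 86.8% and 91.6%. The median log2 difference over all genes was 0.50 in this fit, so the Mthfs call is not read as a difference. Against stellate and mesenchymal-like nuclei 7 of 8 were higher, where 57.9% of all genes were called and 32.2% were higher. Ftcd stood at 47.9% to 84.1% of its hepatocyte-like level in B-like nuclei, within the range of the hepatocyte markers there. Whether those shallow nuclei express Ftcd themselves was not tested.

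**Figure D2:**
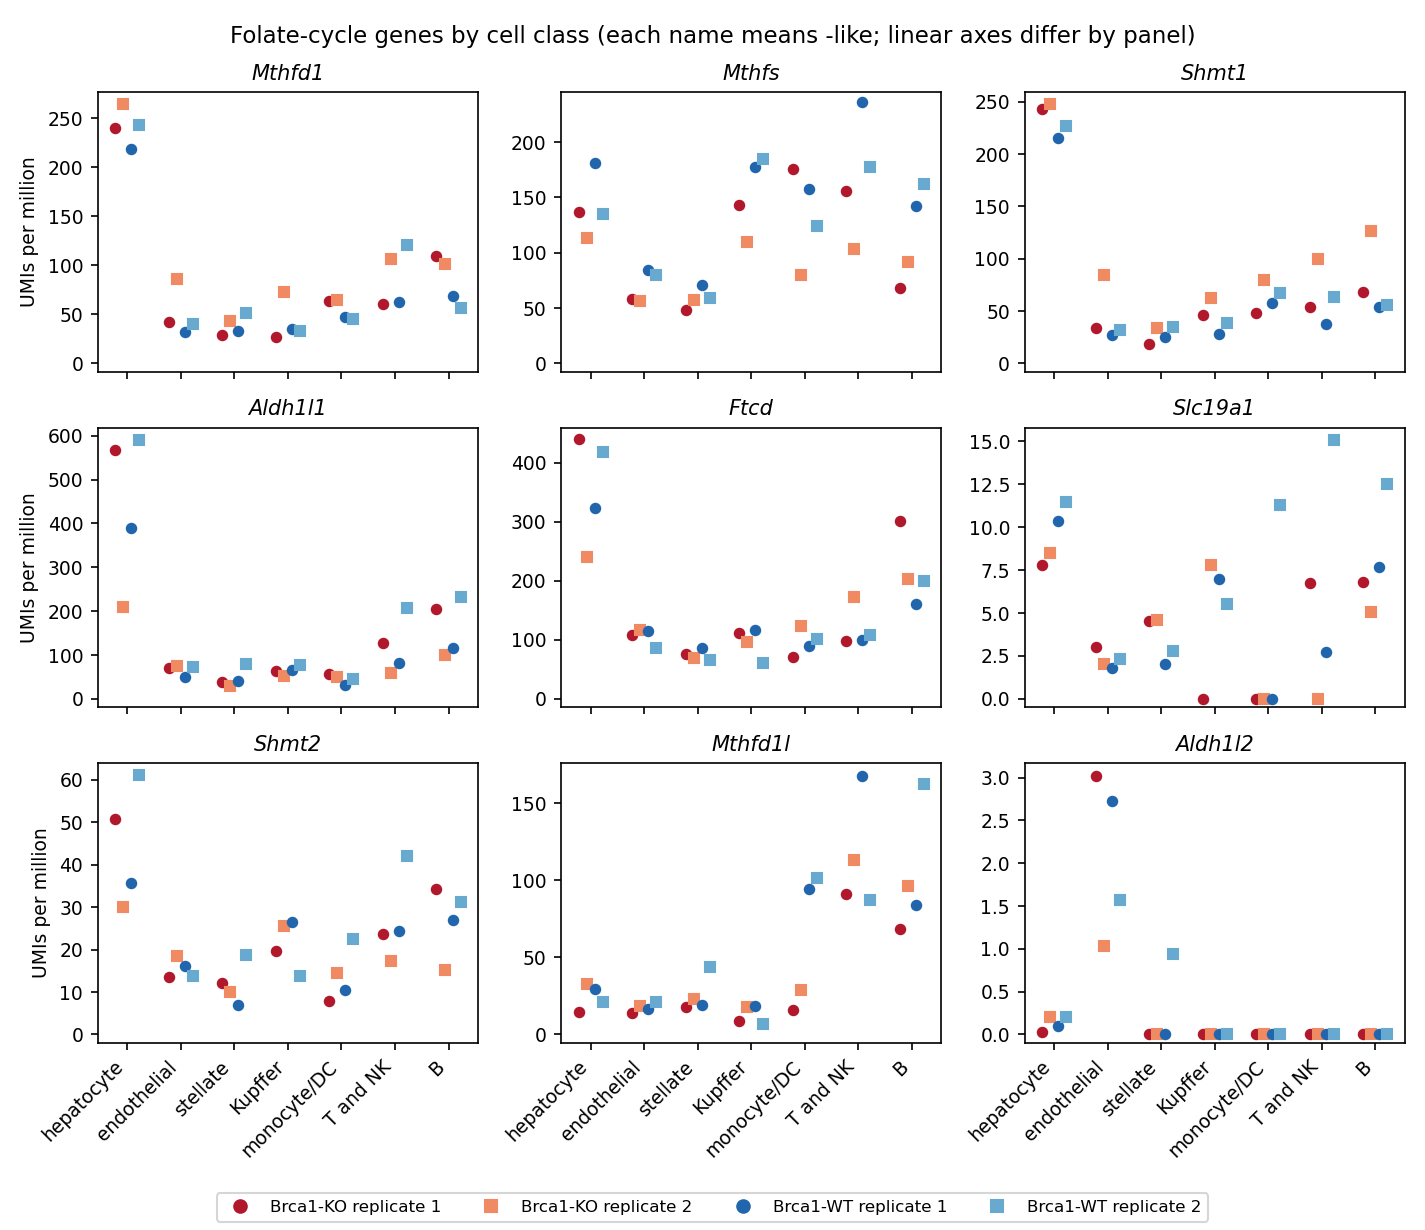
CPM (linear axes that differ by panel) of each folate-cycle gene summed over the nuclei of 7 marker-named classes, 1 point per library. Mthfd1, Shmt1, Aldh1l1, Ftcd and Shmt2 are highest in hepatocyte-like nuclei, and Aldh1l2 in endothelial-like nuclei at no more than 3.02. Mthfd1l has its highest means in T and NK-like and B-like nuclei. Monocyte and dendritic-like nuclei of the Brca1-WT libraries, at 94.3 and 101, lie within the range of those classes.

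Along the lobule, Ftcd and Mthfd1l were strongly periportal and most of the other genes were weakly so. Each hepatocyte-like nucleus was scored within its library from 14 perivenous and 14 periportal landmark genes, none of them a folate-cycle gene, and the nuclei were cut into 3 equal bins. Between 15.1% and 18.5% of nuclei lay within 0.1 SD of a boundary, so the bins are ranges of a score and not cell types. Of check genes that were not landmarks, 6 of 6 perivenous ones were higher in the perivenous bin in all 4 libraries, and 4 of 5 periportal ones were lower there in all 4. Of the 8 genes that passed the filter on low counts, 6 were lower in the perivenous bin than in the periportal bin and none was higher, in edgeR with library as a block. Over all 13363 genes tested, 13.5% were called lower and 12.5% higher. Aldh1l2 was too low to be tested.

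Ftcd had the largest difference among the folate-cycle genes. In the perivenous, middle and periportal bins it stood at 160, 365 and 795 CPM in Brca1-KO replicate 1 and at 67.2, 230 and 473 in Brca1-KO replicate 2. It stood at 129, 226 and 628 in Brca1-WT replicate 1 and at 116, 346 and 792 in Brca1-WT replicate 2. Every library had the same order of bins, and the highest perivenous value lay below the lowest middle value. The means were 118 ± 38.6 in the perivenous, 292 ± 73.9 in the middle and 672 ± 154 in the periportal bin (SD, n = 4 libraries). The log2 difference, perivenous minus periportal, was -2.54 (SE 0.10, edgeR adjusted p 1.5e-06), which ranked Ftcd 97 of 13363 genes from the most periportal. The periportal level was 4.87 to 7.03 times the perivenous one within a library.

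Mthfd1l had the same order of bins at far lower counts. In the perivenous, middle and periportal bins it stood at 7.67, 11.05 and 25.4 CPM in Brca1-KO replicate 1 and at 17.5, 29.3 and 54.8 in Brca1-KO replicate 2. It stood at 11.3, 19.3 and 58.5 in Brca1-WT replicate 1 and at 7.13, 15.5 and 41.4 in Brca1-WT replicate 2. The order was the same in all 4 libraries, while the levels overlapped between bins of different libraries. Its log2 difference was -2.04 (SE 0.16, edgeR adjusted p 0.00018), rank 147 of 13363.

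The promoters of Ftcd and Mthfd1l are shown because these genes had the steepest zone differences. The sequences are the 250 bases before the RefSeq start site in GRCm38.p6, both on the plus strand, Ftcd at chr10:76575398-76575647 and Mthfd1l at chr10:3972825-3973074. Capitals mark matches, on either strand, to the core letters of 4 common promoter motifs, which are spelled out after the sequences and do not overlap one another here.
Ftcd: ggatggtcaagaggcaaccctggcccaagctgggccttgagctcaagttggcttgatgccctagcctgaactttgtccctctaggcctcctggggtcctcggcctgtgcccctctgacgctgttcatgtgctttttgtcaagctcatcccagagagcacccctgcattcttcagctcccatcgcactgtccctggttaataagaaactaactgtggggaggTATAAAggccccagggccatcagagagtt
Mthfd1l: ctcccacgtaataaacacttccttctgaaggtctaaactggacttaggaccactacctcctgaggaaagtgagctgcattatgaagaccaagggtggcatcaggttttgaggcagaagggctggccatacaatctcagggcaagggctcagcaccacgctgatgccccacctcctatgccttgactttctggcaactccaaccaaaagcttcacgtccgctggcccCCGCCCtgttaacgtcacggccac
The Ftcd window held TATAAA, the core of a TATA box, which 12.4% of all 32851 promoter windows of that length held, and none of the other motifs. The Mthfd1l window held only GGGCGG, the core of a GC box, here read on the minus strand, which 32.7% of all windows held. Of the 8 folate-cycle genes with a promoter entry, 1 held TATAAA, 6 held GGGCGG, 3 held CCAAT, the box of that name (33.9% of all windows), and none held CACGTG, the core of an E-box (6.02% of all windows). The observed over expected CpG ratio was 0.15 for Ftcd and 0.39 for Mthfd1l, and the median of all windows was 0.37. A match describes the letters and does not show that a factor binds there.

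The other called differences were small and alike in size. In the perivenous, middle and periportal bins Mthfs averaged 123 ± 26.8, 142 ± 28.2 and 162 ± 29.7 CPM, and Shmt1 averaged 206 ± 10.8, 234 ± 18.8 and 262 ± 24.0 CPM (SD, n = 4 libraries). Slc19a1 averaged 8.17 ± 1.099, 9.35 ± 2.19 and 11.1 ± 1.94 CPM in the same bins. Mthfs differed by -0.40 on the log2 scale, perivenous minus periportal (SE 0.06, edgeR adjusted p 0.0005), Shmt1 by -0.34 (SE 0.05, edgeR adjusted p 0.00092) and Aldh1l1 by -0.32 (SE 0.05, edgeR adjusted p 0.0012). Slc19a1 differed by -0.43 (SE 0.10, edgeR adjusted p 0.012). With Ftcd and Mthfd1l, these made 6 genes whose levels were ordered perivenous, middle, periportal in all 4 libraries. Aldh1l1, for example, stood at 172, 226 and 240 CPM in those bins in Brca1-KO replicate 2 and at 528, 600 and 643 in Brca1-WT replicate 2, so the gap between libraries exceeded the gap between bins. Mthfd1 averaged 227 ± 15.5 in the perivenous bin and 248 ± 27.9 in the periportal bin (SD, n = 4 libraries), with a log2 difference of -0.13 (SE 0.06, edgeR adjusted p 0.16). Shmt2 averaged 40.8 ± 10.9 in the perivenous bin and 47.2 ± 16.4 in the periportal bin, with a log2 difference of -0.18 (SE 0.07, edgeR adjusted p 0.086). The call for Slc19a1 was lost without Brca1-WT replicate 2 (edgeR adjusted p 0.064) and with nuclei thinned to 1000 UMIs (edgeR adjusted p 0.55), and Shmt2 passed without Brca1-KO replicate 2 (edgeR adjusted p 0.021).

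**Figure D3:**
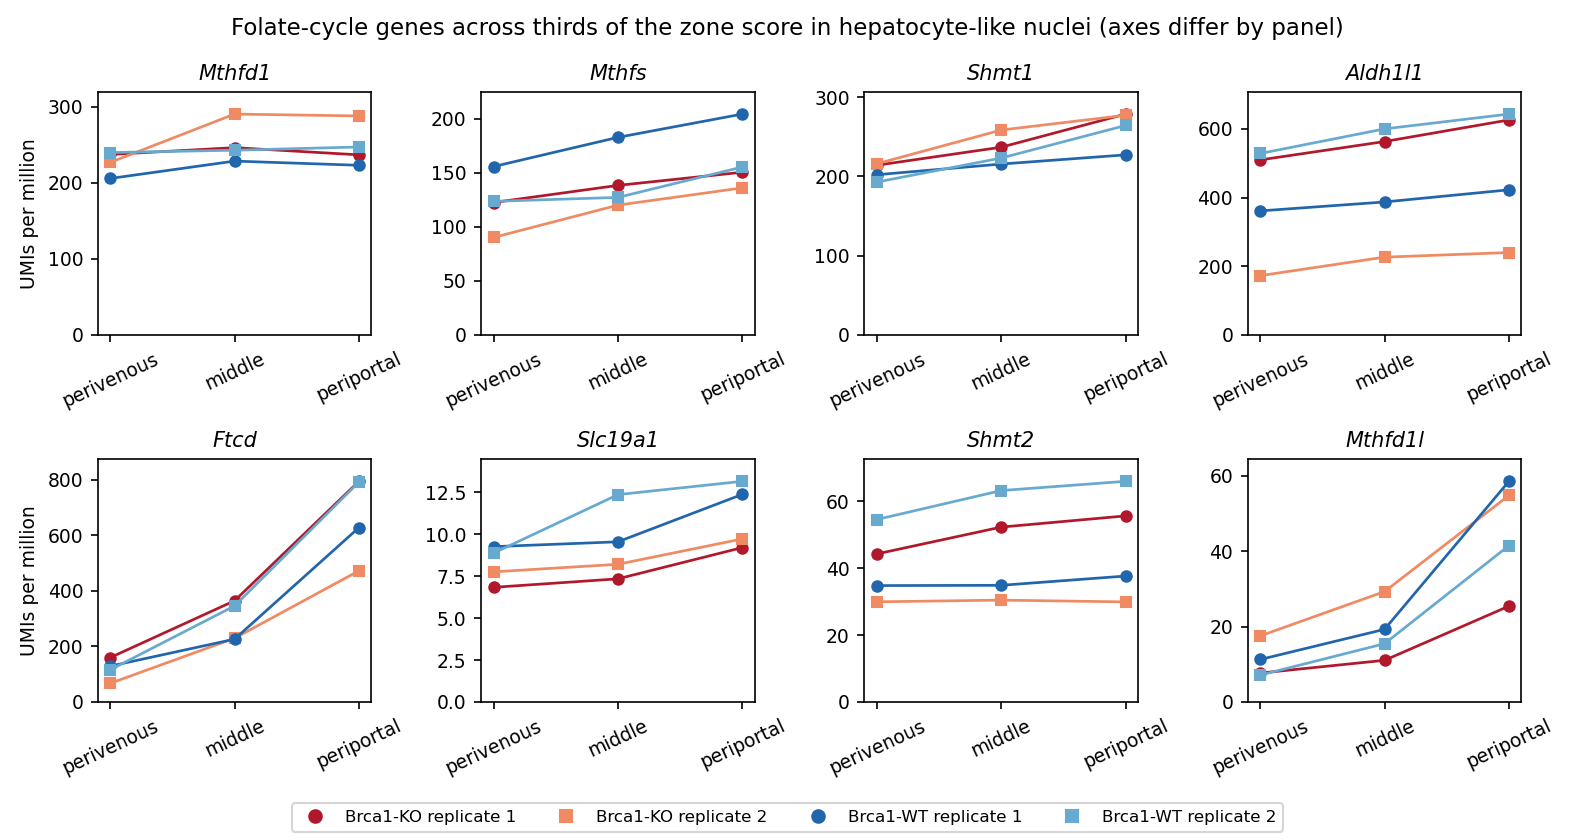
CPM (linear axes that differ by panel) of 8 folate-cycle genes in the perivenous, middle and periportal bins of the zone score, 1 line per library. Ftcd lies at 67.2 to 160 in the perivenous bin and at 473 to 795 in the periportal bin, Mthfd1l has the same shape at lower levels, and Mthfd1 and Shmt2 are nearly flat.

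The enzymes that pass histidine to Ftcd had the same zone pattern. The counts of list genes called by zone are to be read against the 13.5% of all genes called lower and the 12.5% called higher. Of 3 genes of histidine breakdown, Hal, Uroc1 and Amdhd1, all 3 were lower in the perivenous bin. Hal, histidine ammonia-lyase, was itself a landmark of the score, so its log2 difference of -5.09 is a description only. Uroc1, urocanate hydratase, differed by -2.36 (SE 0.05, edgeR adjusted p 9.4e-10) and Amdhd1, imidazolonepropionase, by -2.54 (SE 0.29, edgeR adjusted p 0.0085). Of 7 genes of glycine cleavage and methylglycine oxidation, 2 were lower in the perivenous bin and none was higher. They were Gldc, the glycine decarboxylase of the cleavage system, at -3.81 (SE 0.25, edgeR adjusted p 0.0014) and Sardh, sarcosine dehydrogenase, at -0.20 (SE 0.05, edgeR adjusted p 0.018). Of 6 purine synthesis genes, 3 were lower and none higher (Pfas, Ppat and Adsl, log2 -0.55, -0.29 and -0.28). Of 7 tested genes of polyglutamation and transport, 3 were called higher in the perivenous bin and none was called lower, while the other 4 had negative log2 differences that did not pass and the median of the 7 was -0.14. The 3 were the efflux pumps Abcc3 at 0.88 (SE 0.07, edgeR adjusted p 1.5e-05), Abcg2 at 0.74 (SE 0.07, edgeR adjusted p 3.8e-05) and Abcc2 at 0.38 (SE 0.05, edgeR adjusted p 0.00044), which carry many substrates besides folates. Serine synthesis had 1 tested gene, Psph, and it was not called. In all, 3 of the 31 tested genes of these lists were called higher and 9 lower. Hal is among the 9, and as a landmark that helped define the bins its call was set in advance. The 31 had a median log2 difference of -0.11, against -0.003 over all genes. Gldc, Sardh, Amdhd1, Pfas, Ppat, Adsl and Abcc2 are named after their values were seen.

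Over the 12 sums of 4 libraries and 3 bins, the genes most like Ftcd in log2 level were Sds (Pearson r 0.98), Sult5a1 (r 0.98) and Hal (r 0.97), among 8092 genes. Sds and Hal were landmarks of the score. The genes most like Mthfd1l were Gcnt2, Necab1 and Gm32461, each at r 0.97, and Ftcd and Mthfd1l correlated with each other at r 0.67. Among those most like Aldh1l1 were Ciart and Gm826, each at r 0.99, and Aldh1l1 and Shmt2 correlated at r 0.91. Ciart, a repressor of the circadian clock, stood at 83.6 and 21.5 CPM in libraries labelled Brca1-KO, against 47.0 and 87.2 in those labelled Brca1-WT, the same order of libraries as for Aldh1l1. Most like Shmt2 were Zcchc14, Lpcat3 and Gm21887, at r 0.98 to 0.99. Most like Mthfs were Zc3h6, Trp53inp2 and St3gal5 (r 0.96), most like Shmt1 were Ap2a2, Sdr9c7 and Atxn7 (r 0.94 to 0.96), and most like Mthfd1 were Slc6a6, Akap5 and Lrch1 (r 0.90 to 0.92). The 12 sums share 4 libraries, so these correlations describe the sums and carry no test.

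One small group of hepatocyte-like nuclei held far more Mthfd1l than the rest. A cluster with Cyp2b9, Cacna1b, Thsd4 and Gpc3 among its 10 leading genes, the last a glypican familiar as a marker of human hepatocellular carcinoma, had 172 nuclei, 150 of them from Brca1-WT replicate 1, 22 from Brca1-WT replicate 2 and 0 from either Brca1-KO library. Mthfd1l there stood at 328 CPM in Brca1-WT replicate 1 (407 UMIs) and at 306 in Brca1-WT replicate 2 (55 UMIs). In the other hepatocyte-like nuclei it stood at 16.1 in Brca1-WT replicate 1 and at 19.6 in Brca1-WT replicate 2. It was found in 117 of the 150 nuclei (78.0%) and 16 of the 22 nuclei (72.7%), against 12.1% and 9.63% of the other hepatocyte-like nuclei of the same libraries. Median depths were 6268.5 and 7128 UMIs in the cluster, against 8954.5 and 5944 in the other hepatocyte-like nuclei. The highest count in 1 nucleus was 28 UMIs, so no single nucleus made the level. Gpc3 stood at 443 and 200 CPM in the cluster and at 0.568 and 0.442 in the other nuclei of these libraries. Ftcd stood at 483 and 551 in the cluster, against 316 and 417 in the other nuclei, and Shmt2 at 13.7 and 33.4 against 36.7 and 61.4. The cluster was singled out after its values were seen and is described without a test. Non-tumor is the labels' word for all 4 tissues.

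**Figure D4:**
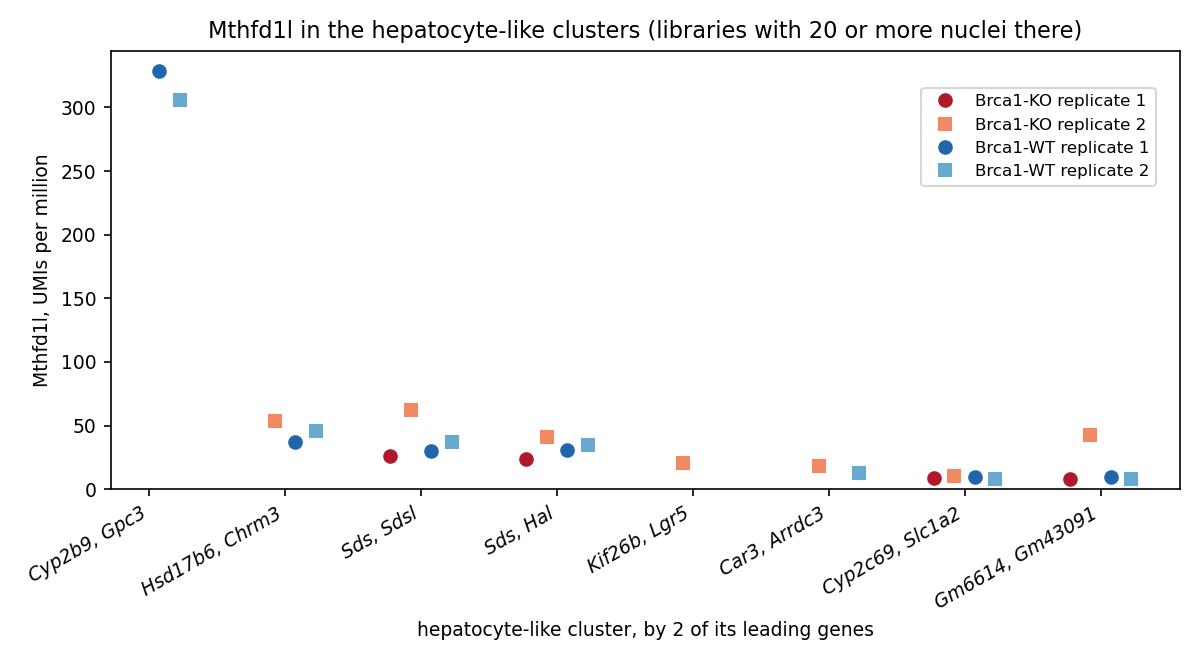
Mthfd1l in CPM (linear axis) in each hepatocyte-like cluster, 1 point per library with at least 20 nuclei there, clusters ordered by their pooled level and named by 2 leading genes. The cluster with Cyp2b9 and Gpc3 stands at 328 and 306 in the Brca1-WT libraries, and no other cluster exceeds 62.6 in any library.

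By genotype, no folate-cycle gene was called in hepatocyte-like nuclei. In hepatocyte-like nuclei 0 of 8 tested genes were called between libraries labelled Brca1-KO and Brca1-WT in edgeR's quasi-likelihood test, where 0% of 15113 genes were called. At an unadjusted p below 0.05 there were 500 genes, none of them a folate-cycle gene, and DESeq2 called 23 genes and no folate-cycle gene. The log2 differences, Brca1-KO minus Brca1-WT, were 0.18 for Mthfd1 (SE 0.20), 0.20 for Shmt1 (SE 0.19), -0.29 for Mthfs (SE 0.22) and -0.37 for Slc19a1 (SE 0.22). They were -0.31 for Aldh1l1 (SE 0.50), -0.08 for Ftcd (SE 0.34), -0.22 for Shmt2 (SE 0.36) and -0.03 for Mthfd1l (SE 0.44). Their edgeR adjusted p-values lay between 0.99 and 1.0. In simulated counts with 2 libraries per genotype, 37% of genes changed by 1 on the log2 scale and 99% of those changed by 2 were recovered. The simulation gave every gene the same spread and set no library apart, while the SEs above ran from 0.19 to 0.50. Its shares therefore do not hold for each gene, and a difference near 1 or larger could be missed. The levels of libraries labelled Brca1-KO and Brca1-WT did not overlap for 2 of 9 genes, Shmt1 and Slc19a1, and for 32.3% of 18699 genes with at least 10 UMIs.

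**Figure D5:**
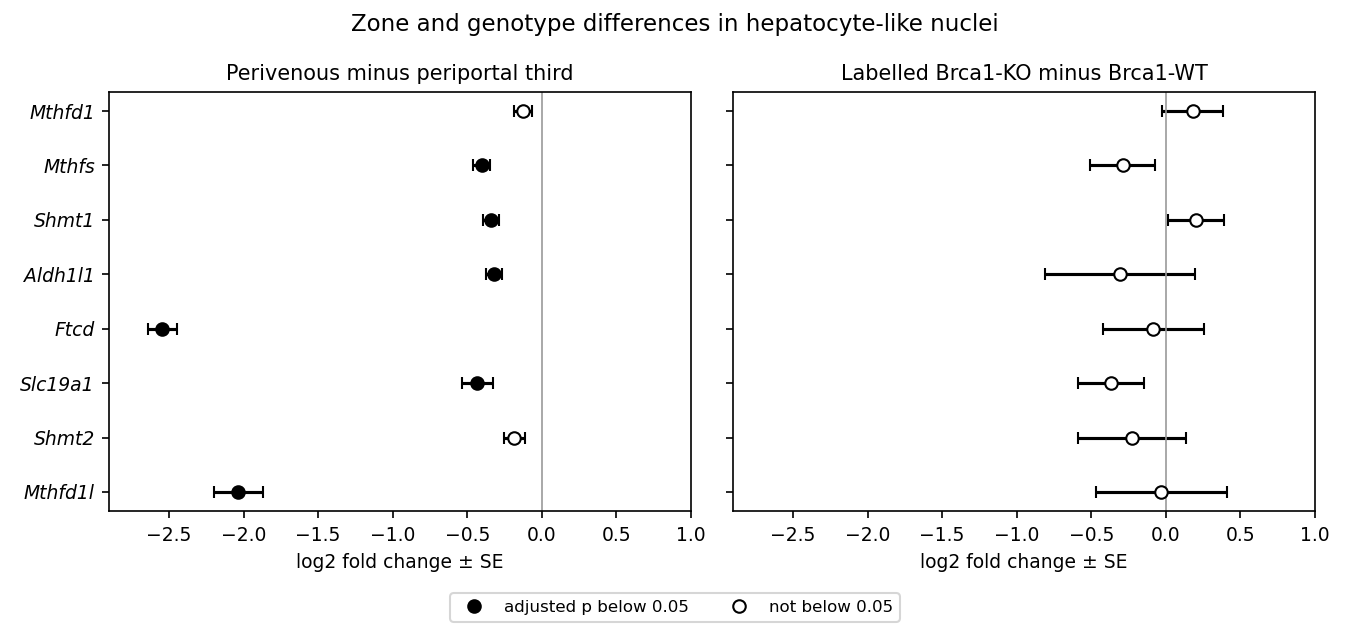
Log2 fold change with its SE from edgeR for 8 folate-cycle genes in hepatocyte-like nuclei, perivenous minus periportal bin on the left and libraries labelled Brca1-KO minus Brca1-WT on the right. Filled points pass an adjusted p of 0.05: 6 genes by zone, led by Ftcd at -2.54 and Mthfd1l at -2.04, and 0 by genotype.

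The values of single genes turned on single libraries. With a library left out, its group has 1 library, which is assumed to vary as the 2 of the other group do, so the SEs and p-values rest on the spread of those 2. Without Brca1-KO replicate 2, the log2 difference was 0.22 for Aldh1l1, 0.27 for Ftcd and 0.08 for Shmt2. Without Brca1-KO replicate 1, whose Brca1 count was the highest, it was -1.13 for Aldh1l1 and -0.52 for Ftcd, and 29 genes were called in hepatocyte-like nuclei on the spread of the 2 Brca1-WT libraries, none of them a folate-cycle gene. For Mthfd1l the value was 0.47 (SE 0.42) when the cluster with Gpc3, absent from the Brca1-KO libraries, was left out. The further folate lists gave 0 calls among 31 tested genes, 17 higher and 14 lower in libraries labelled Brca1-KO without passing the test, with a median log2 difference of 0.01 and -0.01 over all genes. The smallest unadjusted p-values among them in edgeR were those of Psph (log2 0.54), Dmgdh (log2 -0.54), Abcg2 (log2 -0.50) and Ppat (log2 0.32).

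Summed over all kept nuclei, 0 of 9 folate-cycle genes were called in edgeR, where 0% of 17145 genes were called, 786 genes had an unadjusted p below 0.05 and DESeq2 called 21 genes, none of them a folate-cycle gene. In the 6 other classes 0 of the 3 to 7 genes tested per class were called in edgeR or DESeq2, with 2 at an unadjusted p below 0.05: Mthfs in B-like nuclei (log2 -0.84, SE 0.38) and Mthfd1l in monocyte and dendritic-like nuclei (log2 -2.001, SE 0.80, edgeR adjusted p 1.0). The share of genes called was 0.0296% in monocyte and dendritic-like nuclei and 0% in the other 5 classes. In endothelial-like nuclei, Mthfd1 stood at 42.3 and 86.4 CPM in libraries labelled Brca1-KO, against 32.2 and 40.4 in those labelled Brca1-WT, and Shmt1 at 34.2 and 84.4 against 27.3 and 31.8. Among the alternatives run, only with Brca1-KO replicate 1 left out were Mthfd1 (log2 1.36, SE 0.26, edgeR adjusted p 0.014) and Shmt1 (log2 1.62, SE 0.25, edgeR adjusted p 0.0045) called there, with the spread taken from the 2 Brca1-WT libraries alone. The hepatocyte markers were also at their highest in the endothelial-like nuclei of Brca1-KO replicate 2, at a median of 39.8% of their hepatocyte-like level, and their part in this was not tested. In sums over all kept nuclei, fewer cells of a type and less RNA per cell cannot be told apart.

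The zone differences did not differ detectably between genotypes. The test of the difference in the zone difference called 0 of 8 genes in edgeR, where 0% of 13363 genes were called and 415 had an unadjusted p below 0.05. Mthfd1l came closest, with a zone difference smaller by 0.80 on the log2 scale in libraries labelled Brca1-KO (SE 0.16, unadjusted edgeR p 0.00071, edgeR adjusted p 1.0). Its periportal level was between 3.13 times its perivenous level, in Brca1-KO replicate 2, and 5.81 times, in Brca1-WT replicate 2. With no filter on low counts this value was 0.81 and passed (edgeR adjusted p 0.0086). Without the cluster with Gpc3 this value was 0.48 (SE 0.23, unadjusted edgeR p 0.069). For Ftcd the value was -0.02 (SE 0.20), an interval that covers both directions.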

How the data were processed

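Per the file headers, the authors made the matrices with Cell Ranger 6.0.0, and the deposited values are raw UMI counts per gene and barcode. The submitters' processing notes name GRCh38, yet the gene identifiers are mouse, so the mouse build is not given. The labels name a 10x 3′ v1 kit and the molecule as genomic DNA.

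Nuclei with at least 500 genes and at most 5% mitochondrial UMIs were kept, doublets were removed with Scrublet (expected rate 0.06), and nuclei were clustered in scanpy 1.11.5 (2000 variable genes, 30 components, 15 neighbours, Leiden resolution 1) into 21 clusters. Classes were named from fixed markers: at least 3 markers in at least 10% of nuclei and a score 1.5 times the next. A cluster meeting both limits still went unnamed if, in its 10 leading genes, markers for rival classes outnumbered those for its best-scoring class. For this reason clusters of 422 and 49 nuclei, scoring highest as stellate and mesenchymal and as hepatocyte, are in no class. No cluster was named cholangiocyte, and neutrophil-like nuclei were too few to test. Counts were summed per library and class or zone bin and tested with edgeR 4.0.16 (TMM, filterByExpr, quasi-likelihood), with adjustment over all genes and a threshold of 0.05. DESeq2 1.42.0 was an alternative. The procedure was tested on simulated data. Depth per library was 36662067, 45076257, 45638888 and 40077856 UMIs for Brca1-KO replicates 1 and 2 and Brca1-WT replicates 1 and 2, and counting intervals and floors cover counting error only. Tests between classes other than endothelial-like, the crossed replicate block and the fits without the cluster with Gpc3 were chosen after seeing the data.

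The genes and lists were chosen with earlier results of these data known. All 9 genes are named in each comparison, with up to 4 list genes of smallest p, and the 3 genes most like each member with at least 20 CPM. Sequences are from RefSeq, where 8 of 9 genes had a promoter entry. A few results for single genes are not reported here.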

Additional observations from a re-analysis of the deposited data

How the results depend on the processing

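Zone calls numbered 6 and lay between 5 and 7 under each alternative (scaling, filter, doublets kept, thinning to 1000 UMIs, the outer of 5 bins, another score, without the cluster with Gpc3, each library left out), with Ftcd between -2.91 and -2.26 and Mthfd1l between -2.26 and -1.86. Same-numbered libraries deviated from their group means with r = -0.13, so the numbers do not pair them. Genotype calls stayed 0 in hepatocyte-like nuclei and in all kept nuclei, with the replicate block (0) and with the crossed replicate block, added after seeing the data (0), and 0 to 0 with a library left out. The replicate block changed no call in the other classes (0), where leaving out a library gave 0 to 2, the 2 without Brca1-KO replicate 1. The doublets-kept clustering named no monocyte and dendritic-like class. For the difference in the zone difference, leaving out a library gave 0 to 0, and no filter on low counts gave 1 call, Mthfd1l at 0.81 (edgeR adjusted p 0.0086). With a library left out, calls against endothelial-like nuclei were 8 to 9 (Mthfd1l was lost without Brca1-WT replicate 1, at 0.45), against B-like 6 to 7, Kupffer and macrophage-like 6 to 7, T and NK-like 6 to 7, monocyte and dendritic-like 5 to 7 and stellate and mesenchymal-like 7 to 7.

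Values that turned direction were all uncalled. In hepatocyte-like nuclei by genotype, leaving out a library gave -1.13 to 0.22 for Aldh1l1, -0.52 to 0.27 for Ftcd, -0.76 to 0.46 for Mthfd1l and -0.59 to 0.23 for Shmt2, and Mthfd1l was 0.058 with thinning and 0.47 without the cluster with Gpc3. Mthfd1l against stellate and mesenchymal-like nuclei was -0.087 with RLE scaling, -0.068 with doublets kept, -0.087 with thinning and -0.26 to 0.44 with a library left out. The Ftcd difference in the zone difference was 0.30 with thinning, 0.0052 without the cluster with Gpc3 and -0.25 to 0.21 with a library left out. The causes were not tested. Depth limits Aldh1l2 and Slc19a1 most.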
